A study of Homo sapiens with 6 samples.

Results

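The array used here reports 67528 transcript clusters, each a set of probes for 1 transcribed locus, and 40675 of the nuclear ones carry no gene symbol in the deposited annotation. Described below are the 5436 of these unsymboled clusters whose mean log2 level over all 6 arrays was above 7. Members were chosen by that mean, the only measurement the choice used, and it took no account of the groups. A cluster that was high in only 1 group could therefore pass. The 5 members nearest the limit had means of 7.0007 to 7.0022, and the 5 unsymboled clusters just under it had means of 6.9982 to 6.9997. Members reached a mean of 19.91, with a median of 8.79 and quartiles of 7.71 and 10.76.

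RNA came from A549, an established human lung adenocarcinoma line. The control shRNA group held 3 arrays of cells with a stable lentiviral control shRNA, and the S100A4 shRNA group held 3 arrays of cells with a stable lentiviral shRNA against S100A4, a calcium-binding protein associated with metastasis. Both groups grew in DMEM/F12 with serum and antibiotics and were harvested at about 70% confluence, per the labels. The labels call the arrays biological replicates and name 1 shRNA per group, so the p-values below measure the spread between these arrays and do not cover differences between shRNAs or independently made lines.

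Much of the human genome is transcribed outside annotated protein-coding exons. Long non-coding RNAs are transcripts without a recognised coding sequence, and many are antisense to or neighbours of coding genes or are made from the same locus as a coding transcript. MicroRNAs silence messenger RNAs by base pairing, small nucleolar RNAs guide modification of ribosomal RNA, and U small nuclear RNAs form the spliceosome.

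S100A4 itself read 7.57, 7.12 and 7.18 on the control arrays and 5.74, 5.51 and 5.44 on the S100A4 shRNA arrays (log2, limma adjusted p = 0.00363), so the groups did not overlap. Of the 5 epithelial markers 4 had means above 7 (CDH1, KRT7, KRT8 and KRT18), and the fifth, EPCAM, read 5.97. The 5 genes known to be high in A549 read 11.7 to 18.6. The 15 leukocyte, endothelial and fibroblast markers read 3.26 to 4.93, where the medians of the negative housekeeping controls were 4.18 to 4.27. The median over all clusters was 4.75 ± 0.03 on control and 4.72 ± 0.06 on S100A4 shRNA arrays (SD, n = 3 each). The positive housekeeping controls stood at 13.5 ± 0.06 and 13.3 ± 0.13, which is 0.23 lower with S100A4 shRNA.

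By their annotation text 2907 members were long non-coding RNAs, 388 microRNAs, 276 U small nuclear RNAs, 269 7SL, 7SK, Y or other small RNAs, 130 small nucleolar or Cajal body RNAs, 317 cDNA or protein-coding entries and 3 pseudogenes. The other 1146 held only a sequence accession or a browser identifier. Coordinates on GRCh37 stood in the text of 1948 members, and 4 of these named another chromosome than the cluster code. A RefSeq accession stood in the text of 650 members. By RefSeq accession, or by Ensembl gene ID where no accession matched, 493 members matched 1 gene in the RefSeq table of assembly GRCh38.p14. RefSeq gave 336 of those genes as protein-coding, 104 as transcribed pseudogenes, 52 as long non-coding RNA and 1 as a non-coding RNA pseudogene. By these identifiers, then, 336 members without a symbol lay at a protein-coding gene.

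Genes of members were identified by accession or Ensembl gene ID, and sequence is given only as a description. The 250 bases before the annotated start are printed for 4 protein-coding genes in which an unsymboled member and the symbol-bearing cluster were both called, the 2 largest falls and 2 largest rises among genes with an entry in the RefSeq promoter table (TESC and BMP1 have none). They are from RefSeq on GRCh38.p14, read 5′ to 3′ on the gene's strand, at chr7:96322099-96322348 (minus) for SLC25A13, chr20:58388979-58389228 (plus) for VAPB, chr14:65410342-65410591 (plus) for FUT8 and chr9:109417784-109418033 (minus) for PTPN3. Capitals mark GGGCGG or its reverse complement CCGCCC, the core of the GC box.
SLC25A13: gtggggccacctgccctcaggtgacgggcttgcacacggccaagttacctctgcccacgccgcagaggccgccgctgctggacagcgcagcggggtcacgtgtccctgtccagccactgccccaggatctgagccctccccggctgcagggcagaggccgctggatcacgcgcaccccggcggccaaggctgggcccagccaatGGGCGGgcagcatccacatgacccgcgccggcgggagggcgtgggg
VAPB: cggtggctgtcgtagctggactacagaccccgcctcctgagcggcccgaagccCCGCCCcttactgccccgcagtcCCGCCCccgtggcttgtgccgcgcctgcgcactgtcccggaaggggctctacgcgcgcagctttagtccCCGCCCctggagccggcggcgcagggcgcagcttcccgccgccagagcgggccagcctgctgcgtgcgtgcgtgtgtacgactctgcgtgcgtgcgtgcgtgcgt
FUT8: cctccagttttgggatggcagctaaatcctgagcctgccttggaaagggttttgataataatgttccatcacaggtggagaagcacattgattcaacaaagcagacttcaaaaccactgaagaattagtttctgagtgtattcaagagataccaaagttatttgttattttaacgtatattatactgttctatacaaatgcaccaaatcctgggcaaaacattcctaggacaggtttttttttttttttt
PTPN3: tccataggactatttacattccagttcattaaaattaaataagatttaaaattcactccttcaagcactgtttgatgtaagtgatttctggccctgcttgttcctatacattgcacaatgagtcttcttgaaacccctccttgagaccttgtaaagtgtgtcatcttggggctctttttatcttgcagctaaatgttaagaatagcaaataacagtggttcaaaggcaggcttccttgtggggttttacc

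The windows of SLC25A13 and VAPB were each 73.6% G or C, with 21 and 33 CG dinucleotides. Those of FUT8 and PTPN3 were 36.0% and 38.0% G or C, with 1 and 0. GGGCGG or CCGCCC occurred once in the SLC25A13 window, 3 times in that of VAPB and in neither of the others, against 42.6% of 35116 RefSeq windows of the same length. TATAAA or TTTATA was in none of the 4 windows and in 10.7% of all. These are descriptions of single annotated starts, and other starts of the same genes were not looked at.

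Across the members 236 were higher and 147 were lower with S100A4 shRNA (limma, adjusted p under 0.05 over all 67528 clusters), which is 7.05% of 5436. Of all clusters 2.82% were called, with 1095 higher (1.62%) and 808 lower (1.2%). Symbol-bearing clusters with a mean above 7 are the nearest comparison in level, and 10.6% of those 8615 were called, with 474 higher and 435 lower, so the members' share stood above that of all clusters and below that of symbol-bearing ones at the same level. Of the 35239 unsymboled clusters at or below 7 only 0.846% were called. In bulk RNA, fewer cells with a transcript and less of it per cell cannot be told apart. The groups did not overlap in 35.1% of members, 49.2% of symbol-bearing clusters above 7 and 23.9% of all clusters. At least 2-fold changes were seen in 46 of the called rises and 34 of the called falls.

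The median log2 fold of members was 0.07, against -0.03 over all clusters and 0.01 over symbol-bearing clusters above 7. The median level of members was 8.81, 8.74 and 8.70 on the control arrays and 8.80, 8.96 and 8.81 on the S100A4 shRNA arrays. These groups overlapped, with a difference of 0.11 (exact permutation p = 0.2, two-sided, where 0.1 is the smallest possible). With identical members counted once, the medians were 8.7526, 8.69 and 8.66 on control and 8.7528, 8.82 and 8.76 on S100A4 shRNA arrays. The group means differed by 0.08 (exact permutation p = 0.1). The groups barely missed overlapping, as replicate 1 of each had nearly the same median. The split of calls moved with the scaling of the arrays. Quantile normalization gave 195 higher and 211 lower, and shifting the arrays to equal housekeeping controls, which moved the median log2 fold of all clusters to 0.20, gave 731 and 53. Leaving out 1 array, which leaves fewer arrays for the fit, lowered every count. Without control shRNA replicate 1, 2 or 3 there were 102, 69 and 34 rises and 60, 57 and 56 falls. Without S100A4 shRNA replicate 1, 2 or 3 there were 52, 140 and 59 rises and 45, 74 and 47 falls. Of the 383 called members 63 were called in each of the 6 fits that left out 1 array, and 121 in none of them.

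**Figure D1:**
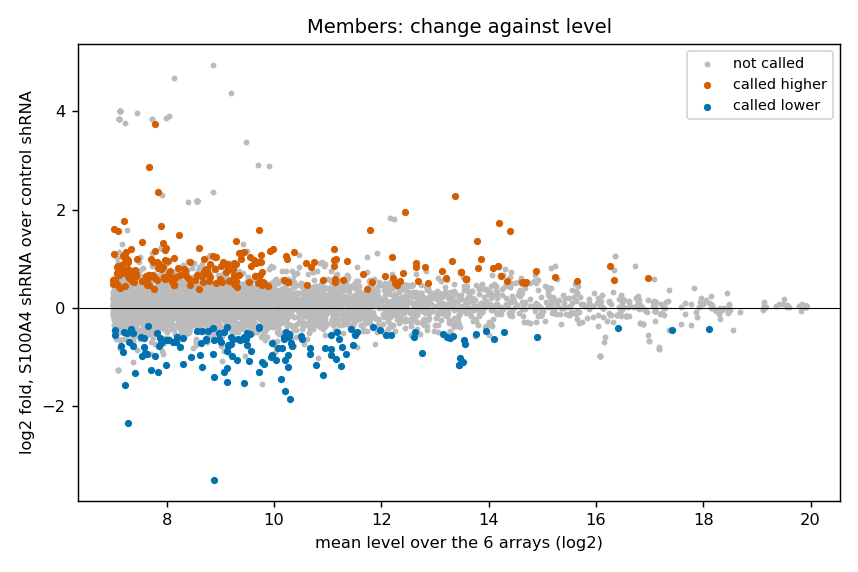
Log2 fold with S100A4 shRNA over control shRNA (vertical axis) against the mean log2 level over the 6 arrays (horizontal axis) for the 5436 members, each a point. Called rises (236, orange) and called falls (147, blue) lie at mean levels up to 18.1, while the points above 3.8 on the vertical axis are grey, not called.

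The highest rise among called members was of TC04002793 on chromosome 4, annotated only as mRNA-like non-coding RNA of accession BC105803. It read 6.38, 5.60 and 5.76 on control arrays and 9.91, 9.41 and 9.67 on S100A4 shRNA arrays, a log2 fold of 3.75 (SE 0.22, 13.4-fold, adjusted p = 0.00154). All S100A4 shRNA arrays stood at least 3 log2 units above every control array. The control mean was 5.91, so the cluster passed the level of 7 only through the S100A4 shRNA arrays. The authors' deposited table gave the same cluster 5.38 and 7.69 for the group means, a ratio of 4.95.

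Cluster numbers ran in coordinate order for 99.8% of 21707 consecutive same-strand pairs of clusters with GRCh37 coordinates, so the clusters on each side of an unplaced one bracket its position. TC04002793 lay by number inside chr4:153662549-156129583 (GRCh37, minus strand). RefSeq-matched clusters at LINC01061 and PDGFC flank it, and among 54 symbol-bearing genes of that strand between them 3 were called, all higher. FGA, the fibrinogen alpha chain, read 5.20, 5.33 and 5.40 on control and 8.26, 7.96 and 8.22 on S100A4 shRNA arrays, a log2 fold of 2.84 (adjusted p = 0.000294). FGG, the fibrinogen gamma chain, rose by 0.56 and INPP4B, a phosphoinositide phosphatase, by 0.74. The flanks and the genes between them were looked at after the values were seen. Flanks can lie outside the coordinate interval, so a gene between them need not lie within it. Of the 26831 symbol-bearing clusters at any level 4.55% were called.

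TC07002494 and TC07002499 rose on chromosome 7. The first read 6.26, 6.20 and 6.24 on control and 9.10, 9.20 and 8.99 on S100A4 shRNA arrays, a log2 fold of 2.86 (SE 0.08, adjusted p = 0.000294). The second read 12.2, 12.2 and 12.3, then 14.9, 14.2 and 14.5, a log2 fold of 2.27 (SE 0.18, adjusted p = 0.00328). Neither cluster's groups overlapped. Both lay by number inside the same interval, chr7:100254183-105955711 (GRCh37, plus strand), and none of 20 symbol-bearing genes between its RefSeq flanks was called.

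On chromosome 15, TC15002689 and the next cluster by number, TC15002690, rose together. TC15002689 read 6.56, 6.78 and 6.68 on control and 9.17, 9.01 and 8.89 on S100A4 shRNA arrays (log2 fold 2.35, SE 0.10, adjusted p = 0.00059). TC15002690 read 13.8, 13.5 and 13.6, then 15.2, 15.1 and 15.3 (log2 fold 1.57, adjusted p = 0.00248). The groups were apart in both. They lay inside chr15:87965966-89147834 (GRCh37, minus strand), between RefSeq-matched clusters at C15orf40 and DET1. Of 11 symbol-bearing genes of that strand between those flanks, NTRK3, the neurotrophin-3 receptor, was the 1 called. It read 9.53, 9.28 and 9.39, then 11.1, 10.9 and 11.1 (log2 fold 1.65, adjusted p = 0.00135).

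Other large rises lay among both faint and bright clusters. TC02004744 went from 11.5 ± 0.08 to 13.4 ± 0.12 (SD, n = 3 each, log2 fold 1.95, adjusted p = 0.000627). Among 22 symbol-bearing genes between its flanks TFPI, which inhibits tissue factor in coagulation, rose by 1.37 and the iron exporter SLC40A1 by 0.44, while CAVIN2, a caveola protein, fell by 2.09. TC20001671 went from 11.0 ± 0.37 to 12.6 ± 0.30 (log2 fold 1.60, adjusted p = 0.0182), and of 10 genes between its flanks PMEPA1, a membrane protein that restrains TGF-beta signalling, was called, with a log2 fold of 0.98. The call of TC20001671 was lost without control shRNA replicate 2 or 3 or S100A4 shRNA replicate 1 or 3, at adjusted p of 0.0674, 0.0852, 0.0678 and 0.0783. TC11002483 went from 13.3 ± 0.21 to 15.1 ± 0.17 (log2 fold 1.73) near the start of chromosome 11, inside chr11:287701-333645 (GRCh37, plus strand). TC11002497 and TC11002498, consecutive by number on the same chromosome, had log2 folds of 1.49 and 1.58.

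The largest fall was of TC10002843 on chromosome 10, annotated as mRNA-like non-coding RNA of accession BX648964. It read 10.8, 10.6 and 10.6 on control arrays and 7.24, 6.88 and 7.29 on S100A4 shRNA arrays, a log2 fold of -3.50 (SE 0.13, 11.3-fold lower, adjusted p = 0.000294). The lowest control array stood over 3 log2 units above the highest S100A4 shRNA array. The authors' deposited table gave group means of 8.54 and 6.64, a difference of -1.89. By number it lay inside chr10:116579687-119236135 (GRCh37, minus strand). Among 25 symbol-bearing genes between its RefSeq flanks GFRA1, a receptor for the growth factor GDNF, read 9.51, 9.56 and 9.55 on control and 7.10, 7.12 and 7.29 on S100A4 shRNA arrays, a log2 fold of -2.37 (adjusted p = 0.000294). MCMBP, a binding protein of the replicative helicase, also fell, by 0.57, and the actin-binding ABLIM1 rose by 0.68.

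TC01001646, annotated by Ensembl as a small nuclear RNA at chr1:200023189-200023293 (GRCh37, plus strand), read 8.70, 8.55 and 8.11 on control and 6.39, 6.05 and 5.92 on S100A4 shRNA arrays. Its log2 fold was -2.33 (SE 0.18, adjusted p = 0.00328), and the groups were over 1.5 log2 units apart. It was the 1 called fall among 276 U small nuclear RNA members, of which 4 rose by 0.45 to 0.78 and 271 were not called. The share called was 1.81% in this class and 2.82% over all clusters.

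TC13001561 went from 11.0 ± 0.15 to 9.36 ± 0.04 (log2 fold -1.69, adjusted p = 0.00127). PCDH9, a protocadherin of cell adhesion, was the 1 called among 24 symbol-bearing genes between its flanks, at 8.08 ± 0.13 and 6.94 ± 0.07 (log2 fold -1.13). TC01006233 went from 9.87 ± 0.18 to 8.36 ± 0.30 (log2 fold -1.51, adjusted p = 0.00898). Of 18 symbol-bearing genes between its flanks 3 were called. CHML, a Rab escort protein, fell by 1.49, HEATR1, needed for ribosome production, fell by 0.64 and OPN3, an opsin, rose by 0.55. TC02004330 and the next cluster, TC02004331, had log2 folds of -1.40 and -1.20. ADD2, the beta subunit of the membrane skeleton protein adducin, was the 1 called gene of 27 between the flanks of TC02004330, at -0.84. Directions could also differ between a member and a gene between its flanks. TC15002137 fell by 1.53. Of 21 symbol-bearing genes between its flanks GREM1, an antagonist of bone morphogenetic proteins, was the 1 called and rose by 1.22.

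Of the 24 largest rises and falls, 16 could be given such RefSeq flanks with symbol-bearing genes between them. At least 1 of the 10 to 54 genes was called for 13 members, and for 9 at least 1 was called in the member's direction. TC07002494 and TC07002499 share 1 pair of flanks. With 4.55% of symbol-bearing clusters at any level called, many spans of this size would hold a called gene. The counts were not compared with other spans. No link between a member and a gene between its flanks was tested. Of the falls without such flanks, TC07000138, a lincRNA at chr7:22896140-22899106 (GRCh37, plus strand), went from 8.01 ± 0.06 to 6.44 ± 0.24 (log2 fold -1.57). TC07003195 fell from 11.6 ± 0.19 to 10.2 ± 0.06 (log2 fold -1.37). The histone demethylase KDM7A, the 1 called of 18 genes between its flanks, rose by 0.41.

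**Figure D2:**
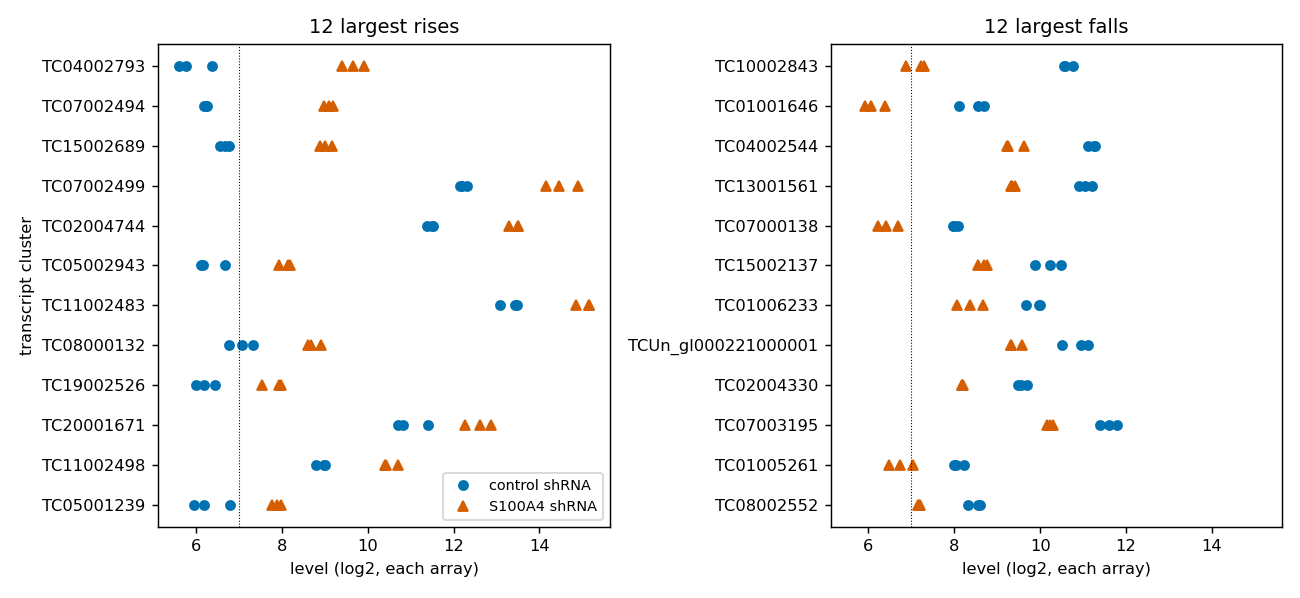
Log2 level on each array (horizontal axis, dotted line at 7) for the 12 largest called rises (left) and the 12 largest called falls (right), 1 cluster per row, with control shRNA arrays as blue circles and S100A4 shRNA arrays as orange triangles. Only clusters whose groups do not overlap were eligible. TC04002793 moves from about 6 to above 9 and TC10002843 from above 10 to about 7.

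Some clusters next to each other by number changed together. Of the called members 51 stood beside another called member, in 20 runs, and 18 runs went in 1 direction. Identical clusters fix the direction in 1 run of 9 on chromosome 19, where all share 1 profile, and in part in a run of 4 on chromosome 4, which holds 2 profiles. Of the 18 runs without identical clusters 16 went in 1 direction. A run of 3 on chromosome 2, TC02003815 to TC02003817, had log2 folds of -0.77, -0.93 and -0.87. The 2 mixed runs were TC02003678 and TC02003679, at 0.78 and -0.88, and TC07003068 to TC07003070, at 0.86, 0.85 and -1.16, the last of which is the SLC25A13 member. Whether the clusters of a run belong to 1 transcript was not tested.

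Some loci are represented by 2 clusters. Among members with GRCh37 coordinates 63 pairs overlapped on the same strand, 4 pairs had both clusters called and each of the 4 went in 1 direction. At chr5:33011428-33017713 (minus strand), TC05002943, named linc-ZFR-3, read 6.68, 6.12 and 6.17 on control and 8.15, 7.94 and 8.20 on S100A4 shRNA arrays (log2 fold 1.78, adjusted p = 0.00486). TC05001239, a lincRNA with the same end, read 6.79, 5.96 and 6.18, then 7.88, 7.78 and 7.98 (log2 fold 1.57, adjusted p = 0.0153). Control shRNA replicate 1 was the highest control array in both, and the groups did not overlap. The call of TC05001239 was lost without control shRNA replicate 3 (adjusted p = 0.0763) or S100A4 shRNA replicate 1 (0.0666) or 3 (0.0721). Such pairs are not independent, and shared probes were not tested.

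The names of 450 members begin with linc- and carry the symbol of a gene. Of these 450 members 20 rose and 11 fell, where 7.05% of all members and 2.82% of all clusters were called. A symbol-bearing cluster of the named gene was present for 340, and the log2 folds of the pairs correlated at r = 0.05 across clusters, which are not independent. Of 21 called members among them 3 had their named gene called the same way and 2 the other way. linc-OCIAD2-1 (TC04002544, chr4:49244794-49247226, GRCh37, minus strand) read 11.3, 11.1 and 11.2 on control and 9.22, 9.62 and 9.26 on S100A4 shRNA arrays, a log2 fold of -1.85 (adjusted p = 0.00181), while OCIAD2, an endosomal and mitochondrial membrane protein, rose by 0.52. linc-ZFR-3 rose while ZFR, an RNA-binding zinc finger protein, fell by 0.63. The 3 same-way pairs were the members named for CCDC146, at 0.72 against 1.43, PHF17, at 0.76 against 0.50, and CALCOCO2, an autophagy receptor, at 0.86 against 0.60. linc-IGFL3-3 (TC19002526) rose by 1.61, and its named gene read 4.17, near the negative controls. Other named genes of called members also read that low or lower, among them RTL1 at 2.81, AMELY at 3.33 and S100B at 4.10. A change in such a gene may not be seen, which limits the correlation and the counts.

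Members matched to a RefSeq gene were set beside the symbol-bearing cluster assigned to that gene by accession or symbol. Chromosome codes were not required to match, and in some pairs they differed, such as TECR (TC19002003 with TC04001361). The symbol-bearing cluster of the same RefSeq gene was on the array for 449 members, and the 2 log2 folds correlated at r = 0.92 across these pairs (Spearman rho 0.92). The pairs share arrays and may share probes, so this is a description. Of 37 called members in pairs 17 rose and 20 fell, and the other cluster of the gene had the same sign in 37 of 37 and was called the same way in 23. Only the members at SLC25A13, DHX9 and FUT8 were called in each of the 6 fits that left out 1 array, 3 of these 37 calls.

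The change of the difference between member and partner was fitted with limma over all 1327 unsymboled clusters with a partner, a test added after the values were seen. At an adjusted p under 0.05 it called 0 of the 449 member pairs and 2 of all 1327. At an unadjusted p under 0.05 there were 65 member pairs (14.5%) and 156 of all pairs (11.8%). The smallest adjusted p in a called pair was 0.0919, for SAT1 and CLK1.

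In 11 falls both clusters of the gene were called. SLC25A13, the mitochondrial aspartate-glutamate carrier citrin, had a member at 11.4, 11.3 and 11.4 on control and 10.3, 10.1 and 10.2 on S100A4 shRNA arrays (log2 fold -1.16, SE 0.09, adjusted p = 0.00331), and its symbol-bearing cluster changed by -1.01. VAPB, a tether between the endoplasmic reticulum and other membranes, had a member at 8.51, 8.79 and 8.64, then 7.93, 7.66 and 7.95 (log2 fold -0.80, SE 0.12, adjusted p = 0.0203), with -0.85 in its partner. In both the groups were apart. TESC, a calcium-binding regulator of sodium-proton exchange, had -1.06 and -0.77, the RNA helicase DHX9 -0.66 and -0.61, the proteasome subunit PSMD1 -0.56 and -0.54, and the splicing factor SRSF6 -0.49 and -0.36. The chaperonin subunit CCT3 had -0.48 and -0.39.

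In other falls the member was called and the partner was not. UMPS, the last enzyme of UMP synthesis, had -0.74 in the member and -0.29 in the partner. The checkpoint clamp subunit HUS1 had -0.70 and -0.32, the splicing-factor kinase CLK1 -0.59 and -0.23, the death receptor FAS -0.48 and -0.27, and SLC3A2, the heavy chain of amino acid transporters, -0.40 and -0.33. The sorbitol dehydrogenase gene SORD had -0.75 and -0.53.

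Rises in pairs were led by BMP1, a procollagen C-proteinase, at 1.37 in the member and 0.92 in the partner. FUT8, which adds core fucose to N-glycans, had a member at 9.83, 9.80 and 9.78 on control and 11.0, 11.0 and 10.8 on S100A4 shRNA arrays (log2 fold 1.14, SE 0.10, adjusted p = 0.00407), against 0.93 in its partner. PTPN3, a tyrosine phosphatase, had 9.17, 8.88 and 9.04, then 10.1, 9.86 and 10.3 (log2 fold 1.04, SE 0.13, adjusted p = 0.0139), against 0.89. The groups did not overlap in either. The kinase DCLK2 had 0.97 and 0.88, the nucleoside transporter SLC29A3 0.85 and 0.69, the decapping enzyme DCP2 0.82 and 0.71, APLP2, a relative of the amyloid precursor, 0.73 and 0.67, and the metalloproteinase ADAM9 0.54 and 0.46. SAT1, which acetylates spermidine and spermine, had 0.71 in the member and 0.41 in a partner that was not called. Pseudogene members included DPY19L2P1 at -0.99 and PMS2P1 at 0.55, which may share signal with their parent genes.

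**Figure D3:**
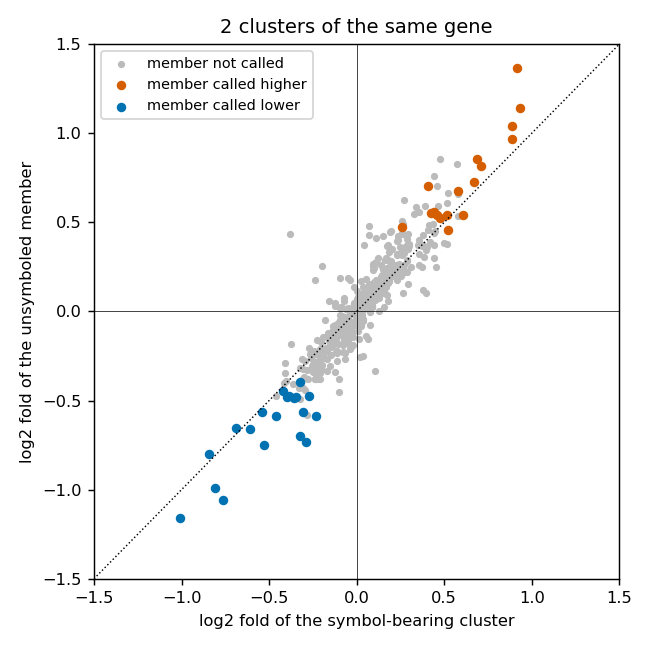
Log2 fold of the unsymboled member (vertical axis) against that of the symbol-bearing cluster of the same gene (horizontal axis) for 449 pairs, with the dotted line where both are equal. The 17 called rises (orange) and 20 called falls (blue) all have the same sign in both clusters, from SLC25A13 at the lower left to BMP1 at the upper right.

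By class, 166 long non-coding RNA members rose and 120 fell (9.84% of 2907 called). This class was read from the annotation text and holds members at protein-coding genes, such as those at SLC25A13 and FUT8. By RefSeq match 33 called members lay at protein-coding genes. Of 388 microRNA members 20 rose and 4 fell (6.19%), with a median log2 fold of 0.20. Their median level was 9.59, 9.77 and 9.58 on control and 9.57, 10.01 and 9.63 on S100A4 shRNA arrays. These medians overlapped between the groups, and S100A4 shRNA replicate 2 had the highest. The called microRNA rises spanned 0.42 to 1.00 and the falls -0.59 to -0.42. More microRNA members rose than fell under every scaling tried, with 22 and 1 after centring, 12 and 4 after quantile normalization and 49 and 0 after shifting to the housekeeping controls. The long non-coding split turned to 148 higher and 177 lower after quantile normalization.

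The largest microRNA-class rise was of TC22000010, at 13.4 ± 0.08 and 14.4 ± 0.24 (SD, n = 3 each). The smallest p was that of TC04001188 at chr4:49597627-49597709 (GRCh37, minus strand), which read 13.0, 13.3 and 13.1 on control and 13.9, 13.8 and 13.8 on S100A4 shRNA arrays (log2 fold 0.74, SE 0.09, adjusted p = 0.0128). It had the same 6 values as TC04001190, and TC04001187 and TC04001189 beside them shared another profile, so these 4 called rises were 2 measurements. TC21000269 and TC21000270, next to each other on chromosome 21, rose by 0.52 each. The call of TC04001188 was lost without control shRNA replicate 3 (adjusted p = 0.0701) or S100A4 shRNA replicate 1 (0.0606) or 3 (0.0566). TC21000270 kept its call without S100A4 shRNA replicate 2, and without any of the other 5 arrays its adjusted p was 0.0564 to 0.0801. TC21000269 was not called in any of the 6 such fits. Ensembl class names in the text do not give a mature microRNA, and the probes may read a longer transcript.

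Small nucleolar RNA members had 2 rises and 2 falls among 130 (3.08%), and cDNA or protein-coding entries had 11 and 7 among 317 (5.68%). The share called was 7.05% over all members and 2.82% over all clusters. Of the snoRNA-class members, TC07000694 at chr7:107243808-107243952 (GRCh37, plus strand) had the smallest p and rose from 7.67 ± 0.08 to 8.27 ± 0.10. Its call held without S100A4 shRNA replicate 2 and was lost without any of the other 5 arrays, at adjusted p of 0.0662 to 0.0962. Of the cDNA entries, TC02001749 fell from 10.7 ± 0.06 to 9.78 ± 0.13. None of the 269 7SL, 7SK, Y and other small RNA members was called by limma, with 43 (16%) at an unadjusted p under 0.05, where 16.9% of all clusters were. The smallest p there, of TC20000828, came with a log2 fold of 0.40 (adjusted p = 0.0838). None of the 3 members classed as pseudogenes by their text was called, and none had an unadjusted p under 0.05. By RefSeq match 104 members lay at transcribed pseudogenes, and of those 4 rose and 4 fell (7.69%).

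By chromosome code, called falls were most numerous on chromosome 2 and called rises on chromosome 7. On chromosome 2, 10 members rose and 28 fell of 364, and of 609 symbol-bearing clusters above 7 there 22 rose and 68 fell. Chromosome 2 had 8 and 18 after centring and 7 and 35 after quantile normalization, but 31 and 7 after shifting to the housekeeping controls. On chromosome 15, 18 rose and 6 fell of 388, and 50 and 7 of 347 symbol-bearing clusters. Here the members' tilt and that of the symbol-bearing clusters ran the same way on both chromosomes. On chromosome 7, 31 rose and 7 fell of 366, against 24 and 14 of 412 symbol-bearing clusters. On chromosome 19, 20 rose and 2 fell of 191, against 14 and 9 of 400. Centring gave 24 and 7 members on chromosome 7 and 17 and 1 on chromosome 19. Quantile normalization gave 25 and 9 on chromosome 7 but only 7 and 3 on chromosome 19. Shifting to the housekeeping controls gave 75 and 4 on chromosome 7 and 33 and 1 on chromosome 19. The difference between members and symbol-bearing clusters was not tested on any chromosome.

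Identical clusters made up part of these counts. On chromosome 19, 9 members numbered TC19001731 to TC19001739 held the same 6 values (7.75, 7.99 and 7.73 on control, then 8.41, 8.32 and 8.39) and a log2 fold of 0.55. On chromosome 7, 8 members held 1 profile (13.4, 13.3 and 13.2, then 14.0, 14.0 and 13.7) with a log2 fold of 0.59. With identical members counted once, chromosome 19 had 12 rises and chromosome 7 had 24. Over all codes 567 members shared all 6 values with another member in 132 profiles, of which 54 spanned more than 1 chromosome code, and the widest covered 35 members over 11 codes. Counted once, the members were 5001 profiles with 219 rises and 146 falls.

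**Figure D4:**
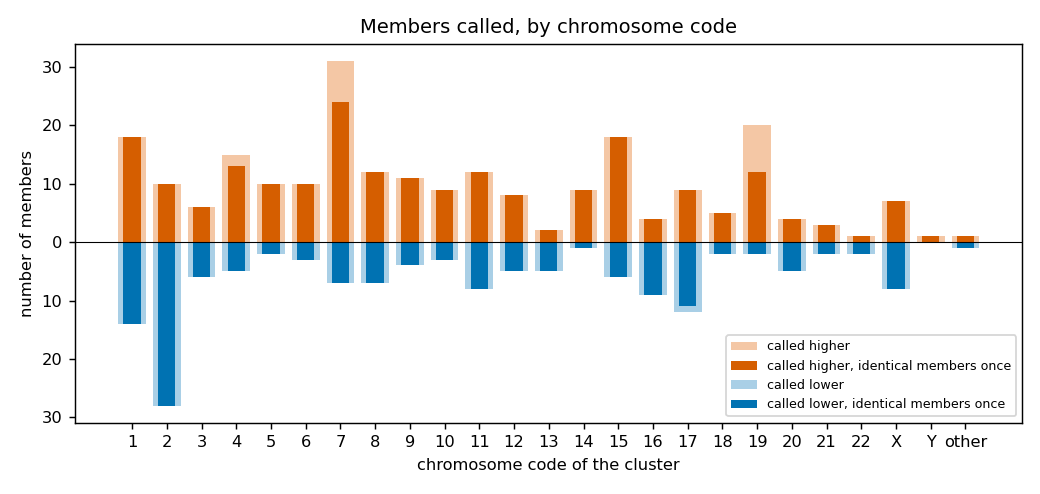
Number of members called higher (upward, orange) and lower (downward, blue) with S100A4 shRNA on each chromosome code, with haplotype and unplaced codes under other. Wide pale bars count every member and narrow dark bars count identical members once. Chromosome 7 goes from 31 to 24 rises and chromosome 19 from 20 to 12, and chromosome 2 has 28 falls.

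The smallest p on each remaining chromosome code named further clusters. Falls there were TC05002316 (log2 fold -1.19), TC17000231 (-1.16, an identical pair at 14.0 ± 0.14 and 12.9 ± 0.01), TC19002328 (-1.07), TC20001266 (-0.98), TC0X001945 (-0.97), TC22000440 (-0.96), TC03003048 (-0.82), TC18000674 (-0.79) and, on chromosome 8, TC08002552 (-1.31). Rises were TC09002745 (1.13), TC16000280 (1.10), TC01003321 (1.16), TC12002330 (0.94), TC06003612 (0.92) and TC0Y000312 (0.62). TC08000132 on chromosome 8 rose by 1.67, TC01005261 on chromosome 1 fell by 1.33, and TCUn_gl000221000001, an unplaced contig, fell by 1.45. TC0Y000312 was called without S100A4 shRNA replicate 2 but not without any of the other 5 arrays (adjusted p 0.0554 to 0.102). Single arrays also decided TC01005261 and TC18000674, lost without control shRNA replicate 3 (adjusted p = 0.0504 and 0.0563), TC03003048, lost without S100A4 shRNA replicate 3 (0.0587), and TCUn_gl000221000001, lost without S100A4 shRNA replicate 1 (0.0522).

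The brightest members, 7 clusters over 6 chromosome codes, shared 1 profile at the top of the scale. It read 19.89, 19.86 and 19.93 on control and 19.93, 19.92 and 19.93 on S100A4 shRNA arrays, where the table's ceiling is 19.93. A change above the ceiling would not be seen. In all, 13 members had at least 1 array within 0.05 of it.

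Single arrays carried some of the highest fold changes. In 29 members, 15 distinct profiles, S100A4 shRNA replicate 2 read more than 3 log2 units above every other array. It read 13.24 to 16.69, S100A4 shRNA replicate 3 read 7.33 to 12.03, and the other 4 arrays read 4.62 to 12.1. Replicate 3 was the next highest array in 14 of the 15 profiles. Of these members 21 had chromosome code 15, 3 had Y, 2 each had 1 and 10 and 1 had 21. Their log2 folds were 1.81 to 4.95, the lowest adjusted p was 0.306 and none was called. No other array set any member apart by that margin, and no symbol-bearing cluster had it on replicate 2. Another 41 unsymboled clusters, at or below 7, had the same gap. On chromosome 15 the median of members was 8.36, 8.46 and 8.49 on control and 8.59, 9.53 and 8.88 on S100A4 shRNA arrays. With identical members counted once it was 8.57, 8.56 and 8.47, then 8.72, 9.02 and 8.86, so replicate 2 stood less far above the rest. The cause of the high readings was not tested.

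**Figure D5:**
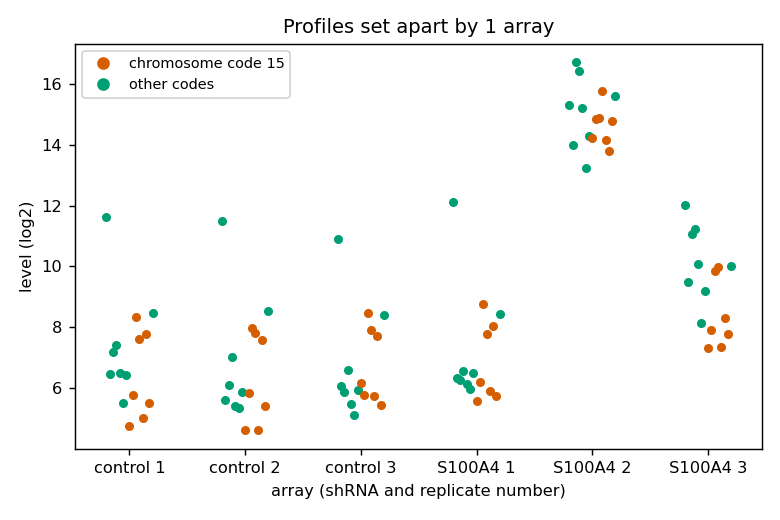
Log2 level (vertical axis) on each of the 6 arrays (horizontal axis) for the 15 distinct profiles in which S100A4 shRNA replicate 2 stood more than 3 log2 units above the rest, chromosome code 15 in orange and other codes in green. Replicate 2 lies at 13.24 to 16.69 and replicate 3 is next in 14 of the 15.

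That array also counted in the choice of members. Without S100A4 shRNA replicate 2 the mean of 82 members would be at or below 7, and without any 1 array that of 158 members, 11 of them called. Both group means were above 7 in 5145 members, 335 of them called. In 212 members the S100A4 shRNA mean alone was above 7 and 38 were called, and in 79 the control mean alone was above 7 and 10 were called. The 38 include TC04002793, TC07002494, TC15002689, TC05002943, TC05001239 and TC19002526 among the largest rises. The 10 include TC01001646, TC07000138 and TC01005261 among the largest falls.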

How the data were processed

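The value table deposited by the authors holds 1 log2 signal for each transcript cluster on each array. Its scale was read from the values, and no source here names the summarisation program. The authors' workbook adds, per the file headers, each group's mean as log2, a p-value without adjustment and the ratio of the groups on a linear scale. The submitters' processing notes name Partek 6.0. The labels give no scan date or batch, and no column of per-sample values was left unused. Control probe sets and mitochondrial clusters without a symbol were not members. The log2 values were used as deposited and fitted with limma 3.58.1 (lmFit and eBayes, R 4.3.3) over 67528 clusters, S100A4 shRNA minus control shRNA, with Benjamini-Hochberg adjustment over all of them. Array number limits the precision; SDs are over 3 arrays and SEs are limma's.

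Accessions and Ensembl gene IDs in the annotation text were matched to the RefSeq table of GRCh38.p14 for names and neighbours only, in Python 3.11.15. Symbol-bearing clusters have no coordinates in the files, so RefSeq flanks and clusters of the same gene took the place of the nearest gene. Of several clusters of a gene the one with the highest mean was kept, whatever its chromosome code. The fits were tested on simulated data. Members and lists were chosen with earlier results of these data known. Named are S100A4, the 12 largest rises and 12 largest falls among called members whose groups do not overlap, the 5 brightest, and the smallest p in each annotation class and chromosome code (the called one where there is one). Every other gene or cluster was named after its values were seen.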

Additional observations from a re-analysis of the deposited data

How the results depend on the processing

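Against 236 members called higher and 147 lower (1095 and 808 of all clusters), centring gave 91 members lower (440 of all clusters lower). Shifting to the housekeeping controls gave 731 and 53 (3311 and 205 of all) and a median member log2 fold of 0.30. Testing only clusters with a mean above 7 gave 600 and 340 (1732 and 1361 of all), and only those above the median level 414 and 228 (1822 and 1284), where fewer clusters were adjusted over. With the replicate numbers as a block the counts were 63 and 46 (337 and 175), but same-numbered arrays correlated at 0.06, 0.05 and -0.02 in their deviations and not every array correlated best with its own number, so the numbers were not treated as pairs. The p-values of the authors' deposited table, adjusted over the same clusters, gave 7 and 3 (33 and 41), and 382 of 383 called members had the same sign there, with a median absolute log2 change of 0.41 against 0.71 in the limma fit. Leaving out each array gave 34 to 140 members higher and 45 to 74 lower (208 to 727 and 179 to 350 of all), with the fewest rises without control shRNA replicate 3. The cause was not tested beyond the numbers of clusters and arrays. Counting identical members once, or requiring a mean above 7 without any 1 array, 2 alternatives chosen after seeing the data, gave 219 and 146 and 227 and 145.

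Of 43 called members named by the rule none changed sign under any alternative. The block lost 9 of these calls, leaving out 1 array lost 0 to 8, and the authors' deposited table lost 39. The uncalled pseudogene TC18000136 turned from -0.11 to 0.12 with the housekeeping shift and 0.15 in the authors' deposited table, and the ceiling-level TC01002863 from 0.04 to -0.012 there. TC02000740, TC04000491, TC04001102 and TC07001932, which share its 6 array values, each had a difference of 0.16 in the authors' deposited table.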
